A study of Rattus norvegicus with 10 samples.

Results

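The genes described here encode the machinery that holds the Golgi apparatus together and returns material through it: golgin tethers and stacking proteins, the COPI vesicle coat with its ARF GTPases, the conserved oligomeric Golgi (COG) complex, and proteins for Golgi ions and cargo. They were chosen by name, as 40 listed symbols, of which 38 had a row among the 10184 genes of the deposited table. Golga4 and Gorasp2 were not analysed here. The samples were 5 libraries of ARSL KO cells and 5 of wild-type (WT) cells of RCS, a line from a rat chondrosarcoma whose cells secrete cartilage matrix. ARSL, or arylsulfatase L, is a sulfatase found in the Golgi. Both groups were left untreated in DMEM with fetal bovine serum, and RNA was taken 48 h after seeding. The labels call the libraries biological replicates and do not say whether the ARSL KO cells are 1 clone or how the knockout was made. A difference caused by the knockout and one between 2 lines for another reason therefore cannot be told apart. The level of Arsl was not analysed here and gives no check of the labels.

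Proteins enter the Golgi from the endoplasmic reticulum and are glycosylated and sulfated as they pass through its stacked cisternae. Golgins catch incoming vesicles, COPI-coated vesicles carry enzymes and escaped residents backwards, and the COG complex tethers those vesicles so that glycosylation enzymes stay in their proper cisternae. Cartilage cells secrete large amounts of proteoglycan and collagen and depend on this route. Loss-of-function variants in the genes for the golgin GMAP-210 (TRIP11), delta-COP (ARCN1), TMEM165 or SLC10A7 cause skeletal disease in people. Rats that lack giantin (Golgb1) have a chondrodysplasia.

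The libraries held 2065594 to 2591819 recovered reads over the 10184 genes of the table. ARSL KO 4, WT 3 and WT 4 stood apart from the other libraries: on the first principal component, with 51.1% of the variance, ARSL KO 4 scored 7.9, WT 3 scored 28 and WT 4 scored 26.8, while the other 7 lay between -15 and -3. ARSL KO 4 stood less far out than WT 3 and WT 4, between them and the other 7. Results are also given without these 3 libraries. No fit left out WT 3 and WT 4 while keeping ARSL KO 4. Markers were looked up by symbol, and 813 of the 10184 genes had none, so a marker not found may be among those. Of 17 chondrocyte markers, 15 were found, Col2a1 and Acan among them but not Sox9. The 15 summed to 48565 to 65560 normalised reads in ARSL KO and 52651 to 91517 in WT libraries. Of the 15, 1 passed the limma test between ARSL KO and WT at an adjusted p under 0.05, Col11a1, a chain of the cartilage collagen fibril. Across all 8431 tested genes, 1.14% passed. Of 7 fibroblast markers only Thy1 was found, at 15.7 to 37.1 normalised reads in ARSL KO and 12.2 to 38.3 in WT. Of 6 leukocyte and endothelial markers only Cd68 was found, at 2.93 to 4.34 normalised reads in ARSL KO and 0.872 to 10.5 in WT. Of 5 osteoblast markers, Runx2, Ibsp and Alpl were measured, summing to 533 to 834 normalised reads in ARSL KO and 671 to 1141 in WT. Normalised reads are reads divided by the size factor of the library.

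None of these Golgi genes passed the test for a difference between ARSL KO and WT cells. Of the 38 genes, 37 had enough reads to be tested, and 0 had a limma adjusted p under 0.05, where 1.14% of all 8431 tested genes did. At an unadjusted limma p under 0.05 there were 4, or 10.8%, where 13.5% of all tested genes passed, and limma-voom on the recovered reads gave the same counts, 0 and 4. The median difference, ARSL KO minus WT, was 0.04 over the 37 genes and 0.01 over all tested genes, on the deposited log2-like scale. Where reads are few, a difference on this scale is smaller than the log2 fold in reads. In 31 of the 37 the difference was smaller than 0.2 in size, as it was in 6192 of all 8431 tested genes. The values of ARSL KO and WT libraries did not overlap for 3 genes, Tmem165, Arf5 and Uso1, all higher in ARSL KO. That is 8.11% of the 37, against a background of 4.26% of all tested genes, 1.86% higher and 2.4% lower in ARSL KO. Among 101 other tested genes of Golgi traffic, described below, the groups did not overlap for 7, some higher and some lower in ARSL KO. In bulk RNA, a change in the number of cells of a kind and a change in RNA per cell cannot be told apart.

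**Figure D1:**
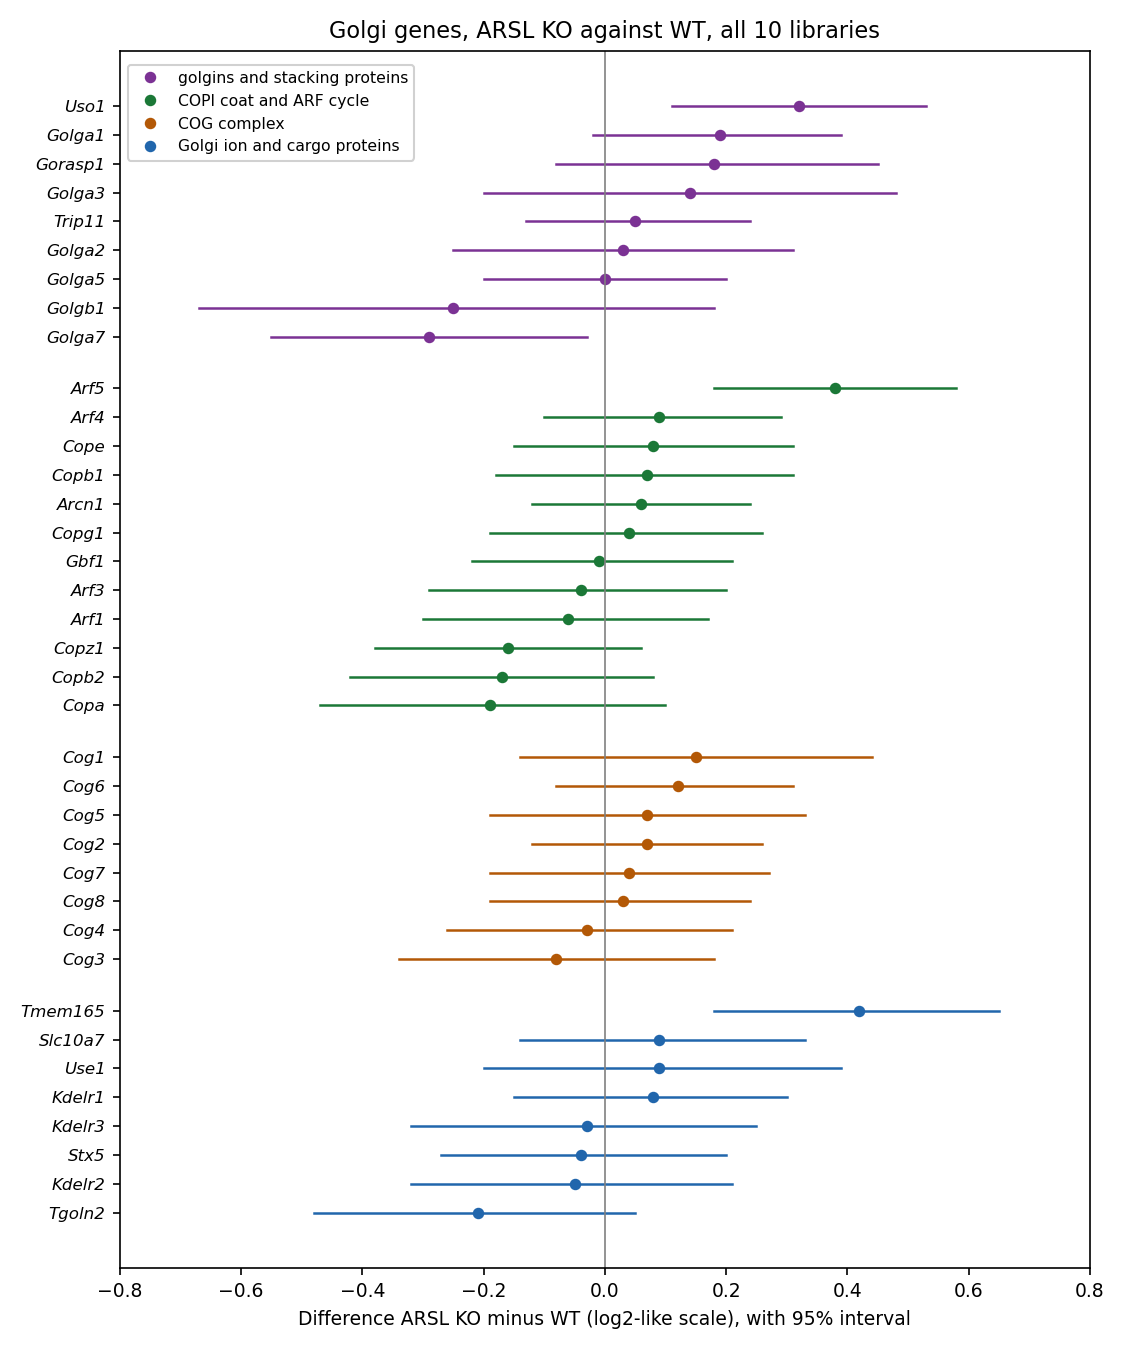
Difference between ARSL KO and WT libraries for the 37 tested Golgi genes (horizontal axis, log2-like scale), with points for the limma estimate and lines for its unadjusted 95% interval, grouped and coloured by class. Tmem165, Arf5 and Uso1 lie to the right of 0 with their intervals and Golga7 to the left, and all other intervals cross 0.

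Among the golgins and stacking proteins, 9 of the 11 listed genes were tested and 0 passed, with a median difference of 0.05. Uso1 encodes p115, the golgin that tethers vesicles arriving from the endoplasmic reticulum and COPI vesicles within the stack. It had 309, 357, 338, 421 and 303 normalised reads in ARSL KO libraries 1 to 5, against 245, 259, 257, 292 and 283 in WT libraries 1 to 5. Every ARSL KO library lay above every WT library, and the nearest pair, ARSL KO 5 and WT 4, differed by little. The mean was 346 ± 47.3 in ARSL KO and 267 ± 19.4 in WT (SD, n = 5 each), a fold of 1.29, and the difference was 0.32 (SE 0.098, limma adjusted p = 0.152). Without the 3 libraries that stood apart it was 0.28 (SE 0.093, limma adjusted p = 0.102).

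The promoters of Uso1, Arf5 and Tmem165 are shown because these are the genes whose groups did not overlap. Each runs from 250 bases before to 50 bases after the RefSeq gene start on the rat build GRCr8, and capitals mark motifs that are described with the other promoters. In Uso1 they mark a pair of GASE motifs, read on the opposite strand, whose first bases lie at -112 and -102 from the gene start.
Uso1 promoter, GRCr8 chr14:16216340-16216639, minus strand: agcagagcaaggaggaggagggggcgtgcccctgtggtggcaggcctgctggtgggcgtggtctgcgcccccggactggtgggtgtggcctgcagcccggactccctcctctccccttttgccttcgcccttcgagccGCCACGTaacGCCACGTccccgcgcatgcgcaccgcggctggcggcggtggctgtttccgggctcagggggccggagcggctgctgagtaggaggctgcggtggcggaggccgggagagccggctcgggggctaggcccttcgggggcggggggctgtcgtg

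Golga7, which encodes a partner of palmitoyltransferases on the Golgi, was the lowest of the class relative to WT. It had 85.9, 67.3, 66.5, 44.9 and 92.4 normalised reads in ARSL KO libraries 1 to 5, against 85.4, 92.9, 94.1, 97.5 and 96.2 in WT libraries 1 to 5. ARSL KO 4 was the lowest library and ARSL KO 1 and 5 lay within the WT range, so the groups overlapped. The difference was -0.29 (SE 0.121, 95% interval -0.55 to -0.03, limma adjusted p = 0.307), and -0.17 (SE 0.118, limma adjusted p = 0.542) without the 3 libraries.

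Golgb1, which encodes giantin, the largest golgin of the COPI vesicle pathway, is described because of its spread, a choice made after its values were seen. It had 250, 307, 201, 370 and 191 normalised reads in ARSL KO libraries 1 to 5, against 227, 255, 469, 422 and 254 in WT libraries 1 to 5. The 3 libraries that stood apart were its 3 highest, ARSL KO 4 below WT 3 and WT 4. The difference was -0.25 (SE 0.198, limma adjusted p = 0.606) with all libraries and -0.06 (SE 0.116, limma adjusted p = 0.88) without them. Its 95% interval with all libraries, -0.67 to 0.18, was the widest of the class.

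Trip11, which encodes GMAP-210, the cis-Golgi golgin whose loss causes achondrogenesis type 1A in people, collected the most reads of the class, 338 ± 13.1 normalised reads in ARSL KO and 325 ± 29 in WT (SD, n = 5 each). Its difference was 0.05 (95% interval -0.13 to 0.24; limma adjusted p = 0.81). Golga1 (golgin-97) and Gorasp1 (GRASP65, which links cisternae) differed by 0.19 and 0.18, with 95% intervals of -0.02 to 0.39 and -0.08 to 0.45. Without the 3 libraries Gorasp1 differed by 0.35 (limma unadjusted p = 0.0122, adjusted 0.147). Golga2 (GM130, the cis-Golgi partner of GRASP65) and Golga5 (golgin-84) differed by 0.03 and -0.00. Golga3 differed by 0.14 but had only 4 to 28 reads per library, and by -0.05 without the 3 libraries.

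**Figure D2:**
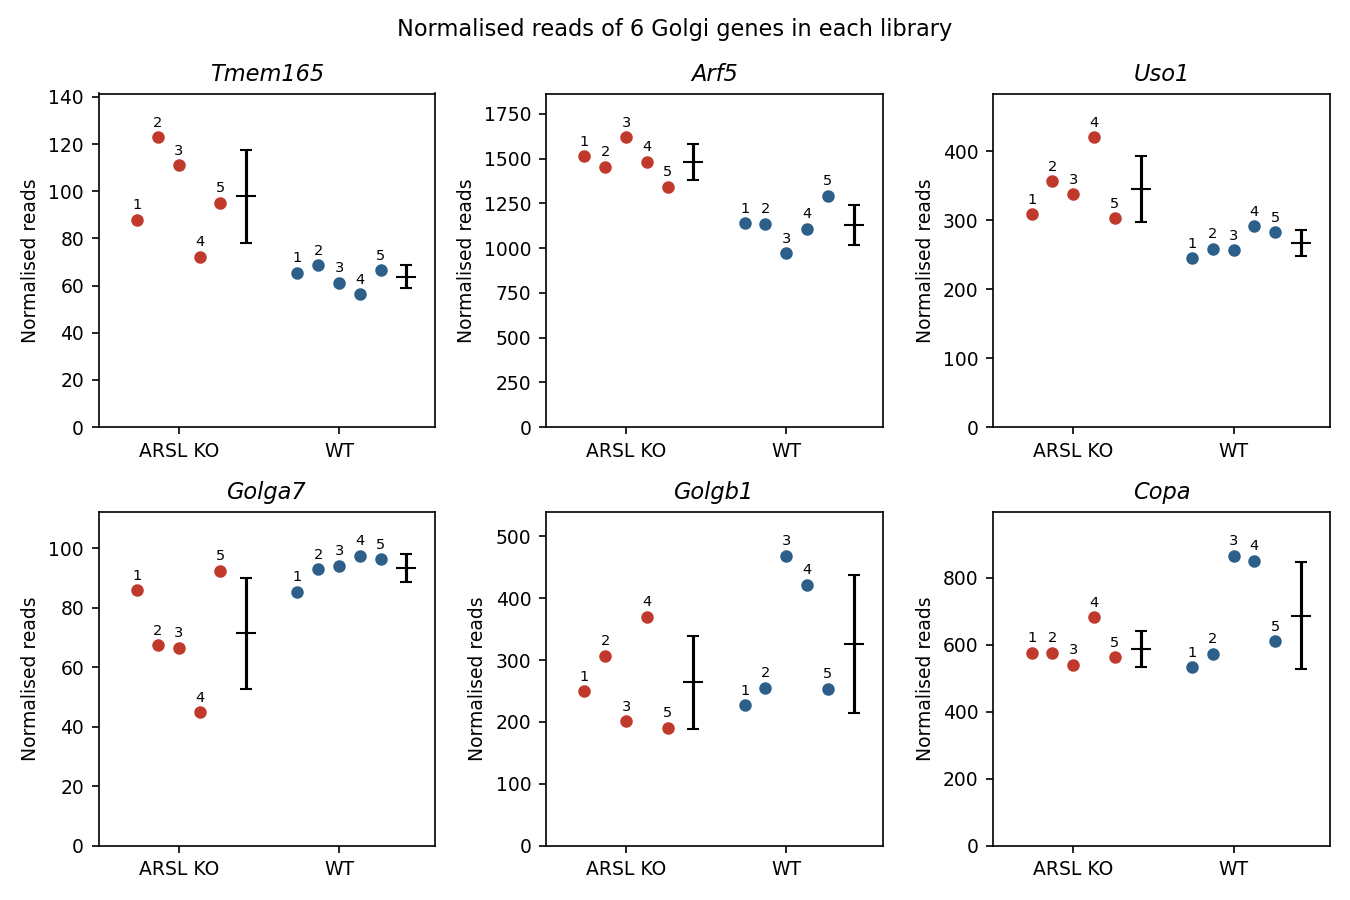
Normalised reads (vertical axis, from 0) of Tmem165, Arf5, Uso1, Golga7, Golgb1 and Copa in each ARSL KO library (red) and each WT library (blue), numbered by replicate, with the group mean and SD (n = 5) as black bars. The groups do not overlap for Tmem165, Arf5 and Uso1, and WT 3 and WT 4 stand above the other WT libraries for Golgb1 and Copa.

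In the COPI coat and ARF cycle, 12 of 13 genes were tested and 0 passed, with a median difference of 0.01. Arf5 encodes a class II ARF, a small GTPase that, with Arf4, acts between the endoplasmic reticulum and the Golgi. It had 1513, 1454, 1620, 1482 and 1343 normalised reads in ARSL KO libraries 1 to 5, against 1139, 1136, 972, 1108 and 1292 in WT libraries 1 to 5. All ARSL KO libraries lay above all WT libraries, with ARSL KO 5 and WT 5 the nearest. The mean was 1482 ± 100 in ARSL KO and 1129 ± 114 in WT (SD, n = 5 each), a fold of 1.31, and the difference was 0.38 (SE 0.094, 95% interval 0.18 to 0.58, limma adjusted p = 0.073). Without the 3 libraries it passed, at 0.31 (SE 0.087, limma adjusted p = 0.0459) and a fold of 1.25. Its limma unadjusted p was not smaller there, at 0.00149 against 0.00107 with all libraries. Over the fits that left out 1 library each, the limma adjusted p of Arf5 ran from 0.0554 to 0.197. The promoter of Arf5 holds 1 GASE motif, on the opposite strand, with its first base at -56.
Arf5 promoter, GRCr8 chr4:58003721-58004020, plus strand: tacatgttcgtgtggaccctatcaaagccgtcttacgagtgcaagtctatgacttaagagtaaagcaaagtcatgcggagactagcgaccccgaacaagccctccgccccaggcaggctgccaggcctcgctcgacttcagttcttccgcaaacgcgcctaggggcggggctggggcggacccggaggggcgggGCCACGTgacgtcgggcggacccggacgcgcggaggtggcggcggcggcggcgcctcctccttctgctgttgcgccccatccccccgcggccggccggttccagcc

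The other ARFs had smaller differences, and whether ARFs differed from each other was not tested. Arf4 differed by 0.09 (95% interval -0.10 to 0.29; limma adjusted p = 0.675), with 1796 ± 122 normalised reads in ARSL KO and 1682 ± 148 in WT (SD, n = 5 each). Arf1 and Arf3, the class I ARFs that recruit the COPI coat, differed by -0.06 and -0.04, with 95% intervals of -0.30 to 0.17 and -0.29 to 0.20. Gbf1, the exchange factor that loads ARFs with GTP at the cis-Golgi, differed by -0.01 (95% interval -0.22 to 0.21). ARF genes resemble each other in their coding sequence, as do the pairs Copg1 and Copg2 and the Kdelr genes. The sources used here do not say how reads that match several of them were counted.

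The coat itself is a heptamer of alpha, beta, beta-prime, gamma, delta, epsilon and zeta subunits. Copa, the alpha subunit, had the most negative difference of the class. It had 577, 576, 541, 682 and 564 normalised reads in ARSL KO libraries 1 to 5, against 534, 573, 867, 852 and 611 in WT libraries 1 to 5. WT 3 and WT 4 were its highest libraries and ARSL KO 4 the highest of its group, and the other 7 libraries lay between 534 and 611. The difference was -0.19 (SE 0.133, limma adjusted p = 0.553) with all libraries and -0.02 (95% interval -0.19 to 0.15, limma adjusted p = 0.958) without the 3. Copz1, the zeta subunit, differed by -0.16 with all libraries and by -0.09 without the 3.

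Copb1 (beta) differed by 0.07, Copg1 (gamma) by 0.04, Arcn1 (delta) by 0.06 and Cope (epsilon) by 0.08, and their 95% intervals lay between -0.19 and 0.31. Copb2, the beta-prime subunit, differed by -0.17 with only 13 to 40 reads per library. Copg2, a second gamma subunit, had too few reads to be tested, with 13.5 ± 5.5 normalised reads in ARSL KO and 8.42 ± 5.82 in WT (SD, n = 5 each). Summed over the 12 tested genes, the class took 7183 ± 418 normalised reads in ARSL KO and 6843 ± 477 in WT (SD, n = 5 each), and the sums ran from 6595 to 7748 in ARSL KO and from 6296 to 7391 in WT, so the groups overlapped.

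The COG complex has 8 subunits in lobes A (Cog1 to Cog4) and B (Cog5 to Cog8), and loss of most of them causes a congenital disorder of glycosylation in people. All 8 were tested and 0 passed, and 0 had a limma unadjusted p under 0.05. Their differences ran from -0.08 to 0.15, with a median of 0.05. Every 95% interval of the 8 lay between -0.34 and 0.44.

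Cog1 had the largest positive difference, with 118, 147, 159, 143 and 112 normalised reads in ARSL KO libraries 1 to 5, against 91.5, 91.9, 167, 135 and 116 in WT libraries 1 to 5. WT 3 was the highest library of all and WT 1 and WT 2 the lowest, so the groups overlapped, with WT 1 and WT 2 below every ARSL KO library and WT 3 above all of them. The difference was 0.15 (SE 0.135, limma adjusted p = 0.647) with all libraries and 0.32 (SE 0.118, limma unadjusted p = 0.0127, adjusted 0.151) without the 3. Cog3 had the most negative difference, -0.08 (SE 0.123, limma adjusted p = 0.804), from 6 to 22 reads per library.

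Cog2 and Cog6 differed by 0.07 and 0.12, with 112 ± 7.7 and 84.9 ± 8.23 normalised reads in ARSL KO and 105 ± 10.3 and 75.3 ± 6.72 in WT (SD, n = 5 each). Cog4, Cog7 and Cog8 differed by -0.03, 0.04 and 0.03, at folds of 0.98, 1.05 and 1.03. Cog5 had 7 to 23 reads per library and differed by 0.07. For Cog3 and Cog5, whose reads are few, the precision is limited by counting.

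Among the Golgi ion and cargo proteins, all 8 genes were tested and 0 passed, with a median difference of 0.02. Tmem165 encodes a Golgi membrane protein needed for manganese supply to glycosylation enzymes, whose loss in people causes a glycosylation disorder with skeletal dysplasia. It had 88, 123, 111, 72.2 and 95.1 normalised reads in ARSL KO libraries 1 to 5, against 65.4, 68.7, 61.3, 56.4 and 66.6 in WT libraries 1 to 5. All ARSL KO libraries lay above all WT libraries, with ARSL KO 4 only just above WT 2. The mean was 97.8 ± 19.7 in ARSL KO and 63.7 ± 4.88 in WT (SD, n = 5 each), a fold of 1.54, the largest among the 37 tested genes.

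The difference of Tmem165 was 0.42 (SE 0.11, 95% interval 0.18 to 0.65, limma adjusted p = 0.0942). Without ARSL KO 4 it passed, at 0.49 (limma adjusted p = 0.0376), and without WT 3, WT 4 and ARSL KO 4 together it was 0.44 (SE 0.116, limma adjusted p = 0.031), a fold of 1.56. Over the fits that left out 1 library each, the limma adjusted p ran from 0.0376 to 0.253. Its promoter holds the CCAAT box at -123 and at -54, marked in capitals, and neither GASE nor UPRE.
Tmem165 promoter, GRCr8 chr14:32372867-32373166, minus strand: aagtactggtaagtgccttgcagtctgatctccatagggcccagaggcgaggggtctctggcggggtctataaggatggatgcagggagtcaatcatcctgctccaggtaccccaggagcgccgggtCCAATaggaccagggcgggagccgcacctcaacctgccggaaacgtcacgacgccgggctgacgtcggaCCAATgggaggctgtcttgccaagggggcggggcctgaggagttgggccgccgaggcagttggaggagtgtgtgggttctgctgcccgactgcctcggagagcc

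Slc10a7, a Golgi transporter whose loss in people causes a skeletal dysplasia with defective heparan sulfate, differed by 0.09 (95% interval -0.14 to 0.33; limma adjusted p = 0.731). The KDEL receptors return escaped endoplasmic reticulum chaperones in COPI vesicles. Kdelr1, Kdelr2 and Kdelr3 differed by 0.08, -0.05 and -0.03, with 95% intervals between -0.32 and 0.30. Kdelr3 had 563, 569, 631, 590 and 456 normalised reads in ARSL KO libraries 1 to 5, against 498, 461, 749, 698 and 510 in WT libraries 1 to 5. WT 3 and WT 4 were again its highest libraries, and without the 3 libraries its difference was 0.16 (SE 0.096, limma adjusted p = 0.44).

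Tgoln2, a protein that cycles between the trans-Golgi network and the cell surface, had the most negative difference of the class. It had 217, 191, 144, 190 and 141 normalised reads in ARSL KO libraries 1 to 5, against 181, 205, 246, 241 and 177 in WT libraries 1 to 5. The groups overlapped, and the difference was -0.21 (SE 0.123, limma adjusted p = 0.481), and -0.11 (SE 0.117, limma adjusted p = 0.733) without the 3 libraries. Stx5 and Use1, SNAREs of the early Golgi and of retrograde fusion with the endoplasmic reticulum, differed by -0.04 and 0.09. Without the 3 libraries Use1 differed by 0.28 (limma unadjusted p = 0.0339, adjusted 0.256).

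The libraries that stood apart moved some Golgi genes and not others. In 13 of the 37 genes, or 35.1%, WT 3 and WT 4 both lay above WT 1, 2 and 5, where 27.2% of all tested genes did. In 6, or 16.2%, both lay below, where 29% of all tested genes did. These shares are a description, since the libraries were set apart on values that include these genes. Both lay above in Golgb1, Golga2, Gorasp1, Copa, Copb1, Copz1, Arf4, Cog1, Cog6, Cog8, Use1, Kdelr3 and Tgoln2. Both lay below in Golga3, Copg1, Arf1, Arf5, Tmem165 and Kdelr2. The part of these libraries in the differences between ARSL KO and WT is given by the values without them, and its source was not tested.

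By class, the mean deviation from each gene's average over the 10 libraries stayed small. For the golgins it ran from -0.065 to 0.1 in ARSL KO libraries and from -0.086 to 0.074 in WT libraries. For the COPI and ARF genes it ran from -0.063 to 0.069 in ARSL KO and from -0.072 to 0.066 in WT. For the COG complex it ran from -0.066 to 0.084 in ARSL KO and from -0.079 to 0.069 in WT. The ion and cargo genes varied most in ARSL KO, from -0.159 in ARSL KO 5 to 0.147 in ARSL KO 2, against -0.111 to 0.064 in WT. In all 4 classes ARSL KO 5 was the lowest ARSL KO library, and its value lay within the WT range for all but the ion and cargo genes.

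**Figure D3:**
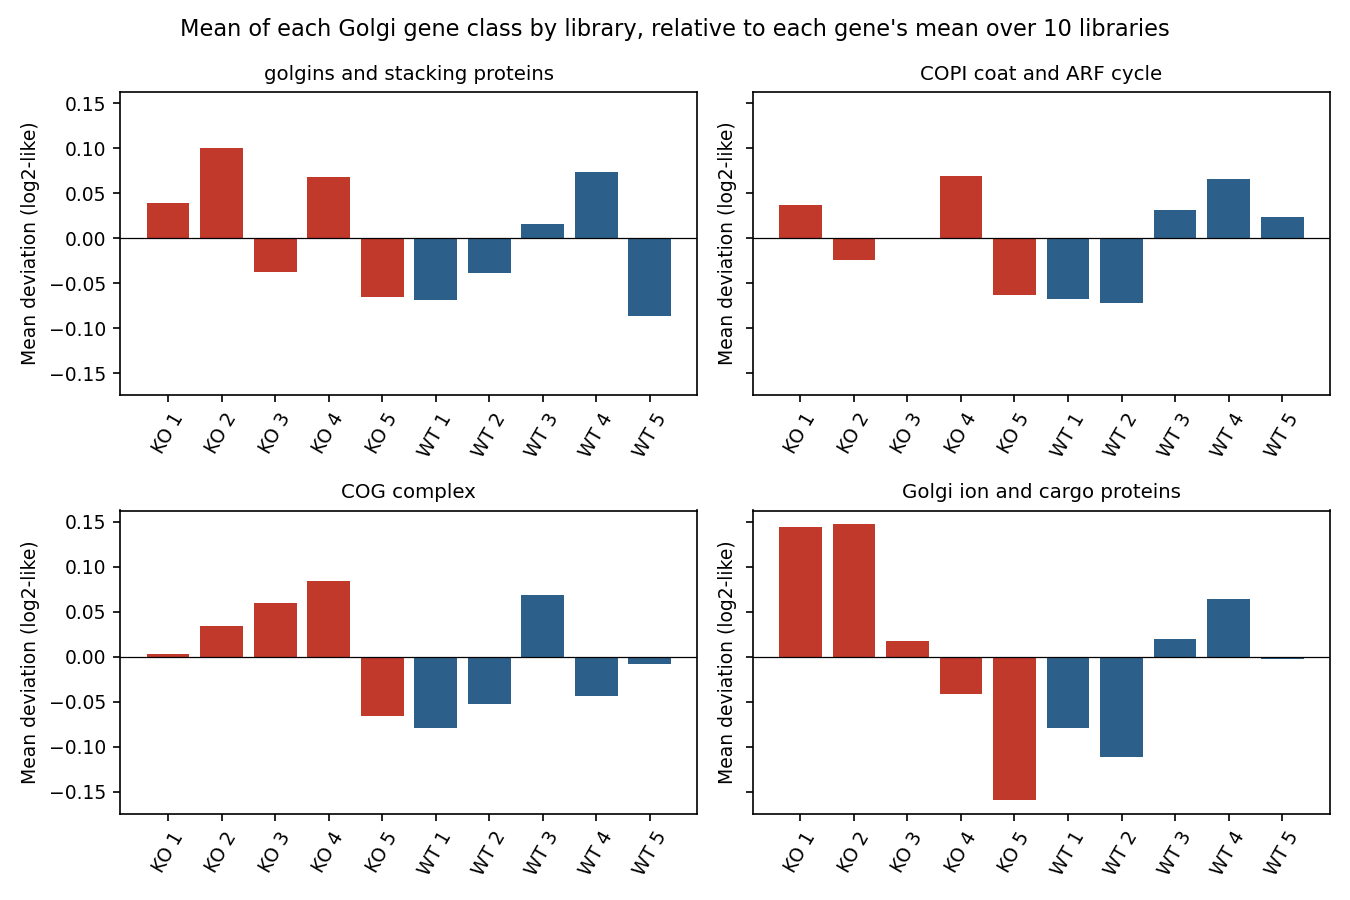
Mean deviation of each class (vertical axis, log2-like scale) from each gene's mean over the 10 libraries, in ARSL KO (red) and WT (blue) libraries. No class separates the groups, and ARSL KO 5 is the lowest ARSL KO library in each panel.

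Without the 3 libraries, 2 of the 37 genes passed, Tmem165 and Arf5, both higher in ARSL KO. That is 5.41% of the 37, against 3.56% of all tested genes, 1.34% higher and 2.22% lower in ARSL KO. There were 6 with an unadjusted limma p under 0.05, where 15.9% of all tested genes had one. The class medians were then 0.06 for golgins, -0.01 for COPI and ARF genes, 0.06 for COG and 0.10 for ion and cargo genes, and the median over all tested genes was 0.01. Copb1, Arf4, Kdelr1 and Kdelr2 differed by 0.17, 0.14, 0.13 and -0.15 without the 3 libraries.

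**Figure D4:**
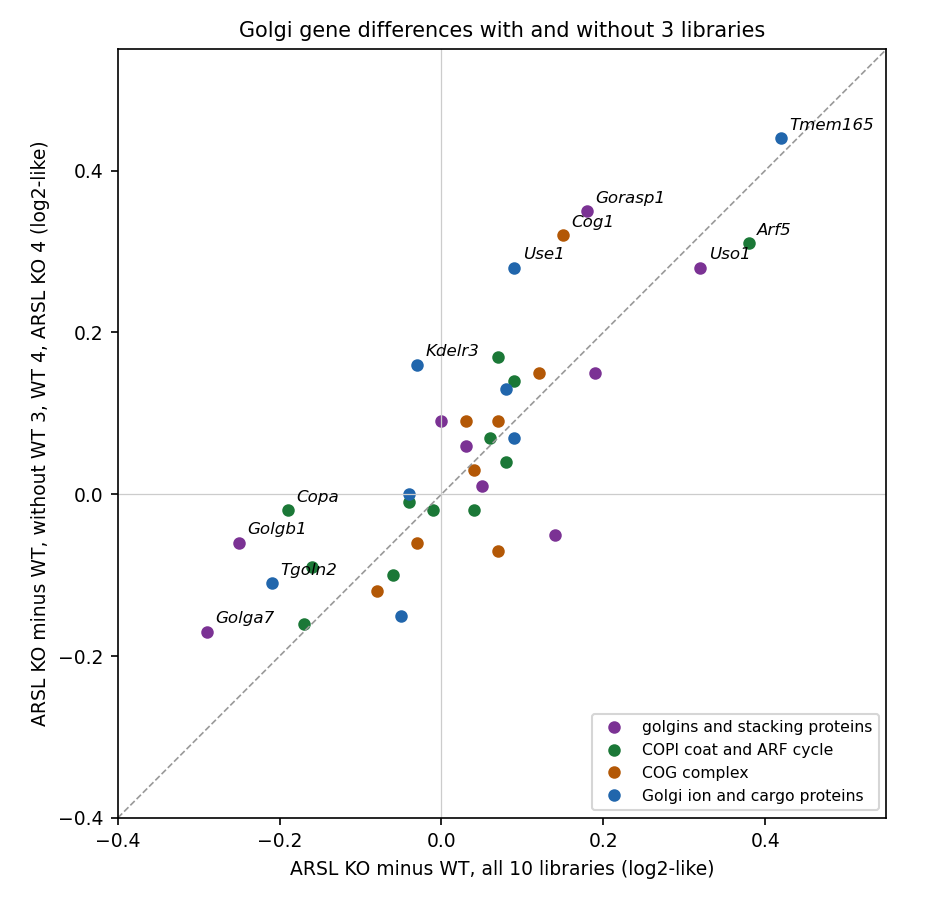
Difference between ARSL KO and WT for each of the 37 tested Golgi genes with all 10 libraries (horizontal axis) and without WT 3, WT 4 and ARSL KO 4 (vertical axis), both on the log2-like scale, with a dashed line where the values are equal. Tmem165, Arf5 and Uso1 stay at 0.44, 0.31 and 0.28 without the 3 libraries, Golgb1 and Copa move to -0.06 and -0.02, and Gorasp1, Cog1 and Use1 move up to 0.35, 0.32 and 0.28.

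Of 132 other genes of Golgi traffic, in 8 lists, 101 were tested and 0 passed by limma or limma-voom, and 13 had an unadjusted limma p under 0.05, or 12.9% where 13.5% of all tested genes had one. The median difference was -0.02. Ap1s1, a subunit of the AP-1 clathrin adaptor at the trans-Golgi network, had the smallest p, with 191 ± 22.3 normalised reads in ARSL KO and 261 ± 37.7 in WT (SD, n = 5 each; difference -0.38, SE 0.109, limma adjusted p = 0.125). Tmed4, a p24 cargo receptor that packages into COPI and COPII vesicles, had 161 ± 8.1 in ARSL KO and 104 ± 39.8 in WT (SD, n = 5 each; difference 0.53, SE 0.157, limma adjusted p = 0.139).

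The smallest p of the SNARE list was that of Stx6, a trans-Golgi SNARE, at -0.34 (SE 0.108, limma adjusted p = 0.164). In the TRAPP list it was that of Trappc6a, with 25.5 ± 8.13 normalised reads in ARSL KO and 50.8 ± 20.1 in WT (SD, n = 5 each). On the log2-like scale it differed by -0.52 (SE 0.157, limma adjusted p = 0.148). The difference was -0.95 by limma-voom on the recovered reads (adjusted p = 0.167) and -0.35 on the log2-like scale without the 3 libraries (limma adjusted p = 0.179). Golph3, which links glycosyltransferases to COPI, differed by 0.26 (SE 0.095, limma adjusted p = 0.233), and Ccdc115, an assembly factor of the proton pump, by -0.26 (SE 0.11, limma adjusted p = 0.307). Arfrp1, an ARF-related GTPase of the trans-Golgi network, and Rint1, a tether of retrograde vesicles, differed by 0.26 and 0.18 (limma adjusted p = 0.499 and 0.55). Arfrp1, Rint1 and Ccdc115 differed by 0.17, 0.07 and -0.17 without the 3 libraries. The value of Rint1, from 28.5 ± 4.91 normalised reads in ARSL KO and 22.5 ± 9.06 in WT (SD, n = 5 each), was 0.11 without WT 3 and 0.28 without WT 5. That of Arfrp1 was 0.17 without ARSL KO 3.

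Of these 101 genes, 3 passed without the 3 libraries, or 2.97%, where 3.56% of all tested genes did. Tmed4 was higher in ARSL KO by 0.83 (limma adjusted p = 2.51e-05) and Ap1s1 lower, at -0.39 (limma adjusted p = 0.0443). Stx18, a SNARE of retrograde fusion, differed by -0.50 without the 3 libraries (limma adjusted p = 0.0245) and by -0.29 with all (SE 0.155, limma adjusted p = 0.439), from 17.5 ± 3.67 normalised reads in ARSL KO and 28.8 ± 13.2 in WT (SD, n = 5 each).

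Some promoters of these genes hold short motifs that the choice of genes did not use. GASE, the Golgi apparatus stress response element ACGTGGC, was defined in human cells from promoters of Golgi genes, that of giantin among them. It is bound there by TFE3. Golgb1, which encodes giantin, is among the genes counted here, so their share with GASE is not independent of that definition. UPRE, the unfolded protein response element TGACGTGG, is bound by ATF6. Both were searched on both strands, and they overlap in TGACGTGGC, so 1 site can hold both. Promoters of 35 of the 40 listed genes were matched by symbol in RefSeq, leaving Cog1, Golga4, Golga7, Gorasp2 and Kdelr2 unmatched, and 34 of the 35 belong to tested genes.

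GASE was in 13 of these 34 promoters, or 38.2%, against 3.82% of the 6484 promoters matched to tested genes and 2.3% of all 33469 promoters of the same length. UPRE was in 10 of the 34, or 29.4%, against 1.02% of promoters of tested genes and 0.595% of all. GASE or UPRE was in 17, or 50%, against 4.33% of promoters of tested genes, 15.1% of the 93 promoters of the other tested Golgi traffic genes and 2.65% of all. Their median GC content was 61.3%, against 61.5% for the promoters of all tested genes.

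By class, over all 35 matched promoters, GASE or UPRE was in 10 of 13 COPI and ARF promoters and 4 of 8 golgin promoters. Either motif was in 1 of 7 COG promoters and 2 of 7 promoters of ion and cargo genes. The 13 include that of Copg2, which was not tested and held neither motif. The CCAAT box, CCAAT, was in 41.2% of the 34 promoters and 39.3% of promoters of tested genes. The cAMP response element TGACGTCA was in 1, that of Cope, and 3.59% of promoters of tested genes held it. The endoplasmic reticulum stress response element, CCAAT followed after 9 bases by CCACG, was in 0 of the 34 and in 0.154% of promoters of tested genes.

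The sites are shown with up to 10 bases on either side, on the strand of the gene and on GRCr8. They are shown because 10 of the 13 COPI and ARF promoters held GASE or UPRE, with GASE in 6 and UPRE in 6. Capitals mark GASE, UPRE or their overlap, and where a promoter has several the site nearest the gene start is given.
Arcn1, chr8:53979021-53979047, minus strand: ccggttggagACGTGGCttggggccgc
Arf1, chr10:44514006-44514034, minus strand: cggcaggcgcTGACGTGGCtgccgtcagc
Arf3, chr7:131791210-131791229, minus strand: agaACGTGGCaaggccccgg
Arf4, chr16:1903417-1903445, plus strand: ggccgccgtgTGACGTGGCacagccgaac
Arf5, chr4:58003905-58003931, plus strand: gaggggcgggGCCACGTgacgtcgggc
Copa, chr13:87078888-87078915, plus strand: ctggggtagcTGACGTGGagcctttggg
Copb1, chr1:177872829-177872856, minus strand: ccgcctccttCCACGTCAgccaaggact
Copb2, chr8:108040667-108040694, plus strand: cccggaagttCCACGTCAgtgggtccac
Copg1, chr4:121923965-121923991, plus strand: gctcagggcgACGTGGCgggcgggagt
Gbf1, chr1:254960007-254960034, plus strand: aggctagttaCCACGTCAgtgagctgac
Golga1, chr3:43222454-43222482, minus strand: tgccgctcgcTGACGTGGCagtggccggc
Golga3, chr12:52160255-52160281, minus strand: ggagggcgtgGCCACGTggatcatcat
Golgb1, chr11:77405957-77405977, minus strand: ttacccgagcTGACGTGGCtt
Uso1, chr14:16216475-16216501, minus strand: gccacgtaacGCCACGTccccgcgcat
Cog3, chr15:57480001-57480027, minus strand: tcggtcgaaaGCCACGTctgttctggc
Stx5, chr1:215066533-215066561, plus strand: tacgtgtaggTGACGTGGCggctccagtt
Kdelr3, chr7:112959616-112959642, plus strand: ggggacggggACGTGGCagcgccccgc

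In Arf1, Arf4, Golga1, Golgb1 and Stx5 the shown site holds both motifs as 1 run, TGACGTGGC. In Copa, Copb1, Copb2 and Gbf1 it holds UPRE without GASE, and in the other 8 genes GASE without UPRE. The first base of the shown site lay from -150 to -1 relative to the gene start in 11 of the 17 genes and after the start in 4. The site furthest upstream, that of Arf3, began at -247 and the furthest downstream, that of Golgb1, at 40.

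**Figure D5:**
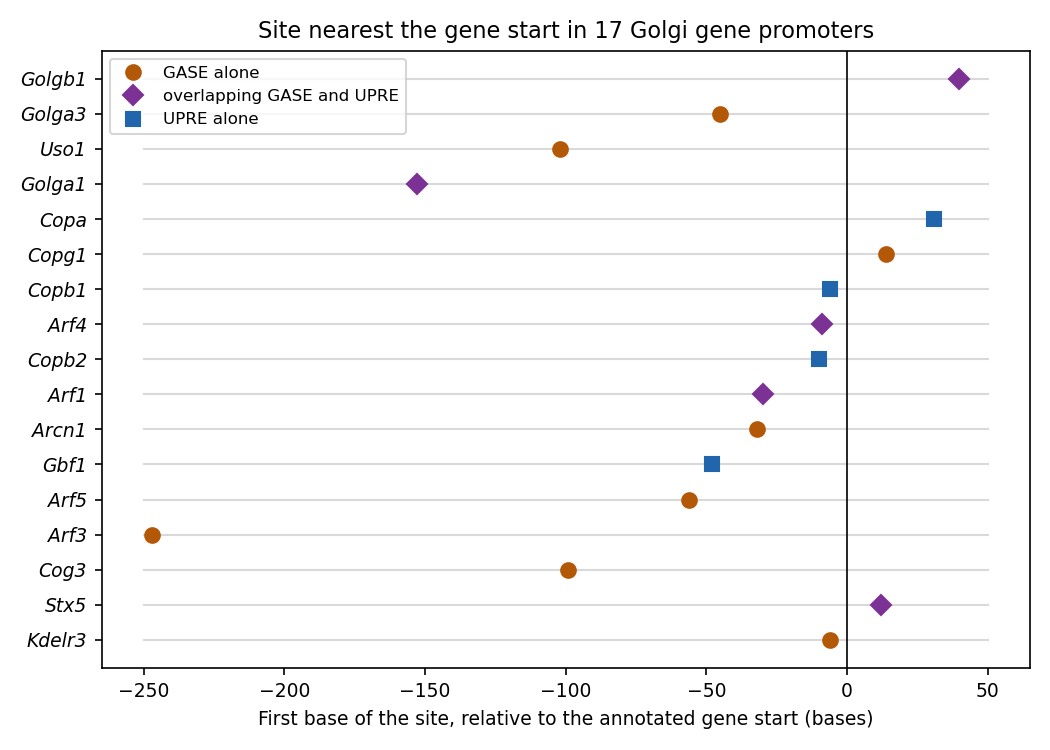
Position of the first base of the GASE or UPRE site nearest the gene start (horizontal axis, bases from the annotated start, negative before it) in the 17 promoters that hold one, with circles for GASE alone, squares for UPRE alone and diamonds for overlapping motifs, and grey lines for the window searched. In 11 of the 17 genes the site lies between -150 and the start.

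Between ARSL KO and WT, the median difference was -0.01 over the 17 tested genes with GASE or UPRE and 0.07 over the 17 with neither. Arf5 and Uso1 hold GASE, and Tmem165 does not. A match of letters is not a site shown to be bound, and the gene starts come from another build, GRCr8, than the rn6 on which the authors counted reads.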

How the data were processed

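The authors deposited 1 table of log2-like values after variance stabilization and scaling for depth; the sources used here do not name the tool, the gene filter or the use of strand. The submitters' processing notes list HTSeq, STAR 2.7.11a, bcl2fastq and the build rn6. Inverting the transformation put every value on a whole read, with a largest departure of 1.6e-09 reads; each gene had at least 30 reads in total. The comparison of ARSL KO with WT used limma 3.58.1 (R 4.3.3; two-sided, intensity trend) in the 8431 genes whose mean exceeded the floor of 4.42 by 1 or more, which is 10.7 normalised reads, and p-values were adjusted over all of them by Benjamini-Hochberg. Intervals are 95% and unadjusted. Replicates differed by more than sampling noise, with a chi-square per degree of freedom of at least 1.85. P-values measure the spread between these libraries, which may be technical. The members and lists were chosen with earlier results of these data known. Named genes were those with an unadjusted p under 0.05 or no overlap, the extreme differences and most reads of each class, and the smallest p of each further list; other genes given singly, Golgb1 and Stx18 among them, were chosen after their values were seen. Figures were drawn with matplotlib 3.10.9.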

Additional observations from a re-analysis of the deposited data

Results flagged for a closer look

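In Copa, ARSL KO 4 lay far from the rest of its group, at 682 normalised reads against 541 to 577 in the other ARSL KO libraries. On the log2-like scale its gap to the nearest of them was 0.727 of the range of the group, above the limit of 0.71 for 5 libraries. It was the 1 such case among 74 groups of 5 libraries examined for the 37 tested genes. Chance gives about 1 in 20, so this is no more than chance gives. The rule uses the gap to the nearest library, so it cannot flag libraries that move together. WT 3 and WT 4, at 867 and 852 normalised reads in Copa, were not flagged. ARSL KO 4 is among the libraries that stood apart over all genes, and the source of that was not tested.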

How the results depend on the processing

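With limma, 96 of all tested genes passed in the fit of all 10 libraries. The count was 300 without WT 3, WT 4 and ARSL KO 4, 60 with the stricter filter, which tests fewer genes, and 33 to 101 when 1 library was left out at a time. Leaving out ARSL KO 1, 2, 3 or 5 gave 53, 37, 33 and 37, and leaving out WT 3 gave 62; the cause was not tested. The count of Golgi genes that passed was 0 with all libraries, 2 without the 3 libraries (Tmem165 and Arf5), 0 to 1 over the fits that left out 1 library each (1, Tmem165, without ARSL KO 4), and 0 under each other setting run. For the other Golgi traffic genes it was 0 with all libraries, 3 without the 3 libraries, 0 to 1 with 1 library left out (Ap1s1 without WT 2), and 0 otherwise. The class medians moved by less than 1 SD of the class means between libraries under every setting. Those SDs, 0.057 to 0.105, are larger than the medians, so this limit allows a change of sign. The median of the COPI and ARF genes was 0.015 with all libraries and -0.035 without WT 4. For the ion and cargo genes it was 0.022 with all libraries, -0.011 without ARSL KO 1 and 0.097 without the 3 libraries.

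The 19 named genes kept their direction in all 377 refits under 20 settings, and in 6 of these a gene that had not passed did. Cog3, Rint1 and Trappc6a were not tested under the stricter filter. Most of the 19 were chosen by their values in these libraries, so a kept direction is no separate support. Without the 3 libraries Copa and Trip11 were near 0, at -0.018 and 0.006. Among genes not in the 19, Cog5 went from 0.07 to -0.07 there, and Golga3 and Kdelr3 also changed sign. With the replicate block the count over all genes was 136 and that of Golgi genes 0. The numbers were not taken as pairs, since the correlations of deviations between same-numbered libraries ran from -0.293 to 0.587, and 2 of 5 ARSL KO libraries correlated best with their own number. Genes with few reads, such as Cog3, Cog5, Golga3, Copb2 and Copg2, are limited by depth.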
